A study of Sus scrofa with 70 samples.

Results

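The 7 genes described here encode the ADAM proteins of sperm and of the epididymis that were followed through the male tract of the pig: ADAM2, ADAM18, ADAM29, ADAM30 and ADAM32, known as testis genes, and ADAM7 and ADAM28, known from the epididymis. They were chosen by name, and a gene's value was the sum of the TPM (transcript abundance corrected for length and scaled to the same total in every library) of all transcripts that the annotation gives under its name. All 7 of 7 were found among the 35680 genes of the table, and all 7 passed the filter of 1 TPM in at least 3 of the 30 RNA-seq libraries. The tissues were the testis, the epididymis and 3 accessory glands (vesicular, prostate and bulbourethral), taken from boars of 2 breeds at an age of 12 months, with 3 RNA-seq libraries for each breed and gland and 1 long-read Iso-seq library for each breed and gland (10 in all). The breeds were the Banna mini-pig inbred line (BMI) and the Diannan small-ear pig (DSE), the local breed from which the inbred line was derived. The labels name no treatment and no engineered allele for any boar. They do not give the segment of the epididymis that was taken, nor the boars behind the Iso-seq libraries.

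ADAM proteins are membrane proteins with a pro-domain, a metalloprotease domain, a disintegrin domain and a cysteine-rich domain. The sperm ADAMs are made by spermatogenic cells, pass through chaperones of the endoplasmic reticulum, form complexes on the sperm surface and are cut by proteases during transit through the epididymis, and in the mouse several of them are needed for sperm to enter the oviduct and to bind the zona pellucida. ADAM7 and ADAM28 are made by the epithelium of the epididymis, and ADAM7 is handed on to sperm in membrane vesicles. In most ADAMs of the sperm surface the metalloprotease domain no longer holds the zinc-binding site of an active enzyme.

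The 7 differed at the zinc-binding site, the one stretch of the proteins that was compared on its own. The coding stretches that align with the site of ADAM28 are given below in the 5′ to 3′ direction of the gene, and capitals mark the codons of the 3 histidines and the catalytic glutamate wherever the residue of ADAM28 was kept. The stretches were read from the Sscrofa11.1 genome at the positions that the annotation gives for the longest coding transcript of each gene.
ADAM28, chr14:8413781-8413813, plus strand: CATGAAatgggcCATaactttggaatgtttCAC
ADAM7, chr14:8534984-8535016, plus strand: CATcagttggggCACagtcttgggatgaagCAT
ADAM29, chr14:15383766-15383798, minus strand: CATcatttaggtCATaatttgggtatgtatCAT
ADAM30, chr4:101315727-101315759, plus strand: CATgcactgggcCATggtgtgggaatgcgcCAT
ADAM2, chr15:47236805-47236840, plus strand: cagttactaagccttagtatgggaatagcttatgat
ADAM18, chr17:9199293-9199328, plus strand: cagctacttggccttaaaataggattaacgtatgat
ADAM32, chr15:47458766-47458804, minus strand: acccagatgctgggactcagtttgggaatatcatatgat

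ADAM28 was the one member in which all 4 of 4 of these residues were present. ADAM7, ADAM29 and ADAM30 kept 3 of 3 histidines without the glutamate. ADAM2, ADAM18 and ADAM32 kept 0 of 3 histidines, and their stretches aligned only with a gap. The motif of histidine, glutamate and histidine was found in the predicted reading frames of 41 of the 44 coding ADAM28 isoforms read in full length, and in 0 of the coding isoforms of the other members. Over the whole proteins the pairs of highest identity were in part others. ADAM7 and ADAM28 had 42.3% identical residues, against 29.8% and 30.9% of ADAM7 with ADAM29 and ADAM30, ADAM2 had 44.2% with ADAM32 and 43.8% with ADAM18, ADAM18 had 41.4% with ADAM32 and ADAM29 had 39.8% with ADAM30, while the other pairs lay between 28.2% and 37%.

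The 2 genes of the epididymis are neighbours on chromosome 14. ADAM28 (ENSSSCG00000009644) spans chr14:7995300-8440154 and ADAM7 (ENSSSCG00000009646) spans chr14:8482917-8627085, both on the plus strand, with ADAMDEC1 between them. ADAM29 (ENSSSCG00000053572) lies farther along chromosome 14 at chr14:15382020-15392228 on the minus strand. ADAM2 (ENSSSCG00000045907, chr15:47207722-47278648, plus strand) and ADAM32 (ENSSSCG00000015807, chr15:47388302-47520413, minus strand) are neighbours on chromosome 15. ADAM18 (ENSSSCG00000007008) lies at chr17:9166119-9233952 beside ADAM3A, and ADAM30 (ENSSSCG00000006713) at chr4:101314534-101322078.

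The labels of the glands were checked against markers, and 3 libraries that stood apart from their group touch the results below. The 10 markers of spermatids summed to 26222 TPM in DSE testis 2 and to between 78720 and 119827 TPM in the other 5 testis libraries, and the 8 markers of spermatocytes to 334 TPM against 919 to 1330 TPM. Of the 11 markers of epididymal epithelium 6 were in the table, and they summed to between 1190 and 31031 TPM in the epididymis libraries and to at most 4.39 TPM in testis. The highest of these sums was that of BMI epididymis 2, the library with the highest spermatid sum among the epididymis libraries (1115 TPM against 23 to 271 TPM). DSE epididymis 1 had 21.3 TPM of CRISP1, a secreted coat protein of epididymal sperm, against 1100 to 2759 TPM in the other 5 libraries of the gland, and the highest LCN10, an epididymal lipocalin, at 1429 TPM. The TPM hold no read depth, and the read totals and RNA integrity scores that the study lists were not used here. The isoform table held between 231413 and 458697 full-length reads for each Iso-seq library, which counts the isoforms kept and not all reads sequenced.

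The 5 testis genes were at between 2.93 and 144 TPM in the testis libraries and below 1 TPM in every library of the other glands. ADAM2, the beta subunit of the sperm protein fertilin, was at 101, 144 and 101 TPM in BMI testis 1 to 3 and at 125, 24.5 and 78.2 TPM in DSE testis 1 to 3. ADAM32 was at 77.5, 109 and 91.9 TPM in BMI and at 92.4, 23.8 and 75.3 TPM in DSE. In both genes DSE testis 2 was the lowest library, and the ranges of the breeds overlapped.

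ADAM29, a testis gene with few exons, was at 54.5, 52.1 and 59.9 TPM in BMI testis and at 45.1, 16.1 and 62.6 TPM in DSE testis. ADAM18, a relative of ADAM2 on germ cells, was at 15.8, 20.9 and 12.9 TPM in BMI and at 20, 3.31 and 11.08 TPM in DSE. ADAM30 was at 13.6, 17.5 and 11.9 TPM in BMI and at 17.2, 2.93 and 11.3 TPM in DSE. The order of the mean levels in testis was ADAM2 at 95.7 ± 41.5 TPM, ADAM32 at 78.4 ± 29.5, ADAM29 at 48.4 ± 17, ADAM18 at 14 ± 6.5 and ADAM30 at 12.4 ± 5.3 TPM (SD, n = 6 for each). The ranges of ADAM2, ADAM32 and ADAM29 overlapped, as did those of ADAM18 and ADAM30, and with DSE testis 2 the range of ADAM29 reached down to those of ADAM18 and ADAM30 too.

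**Figure D1:**
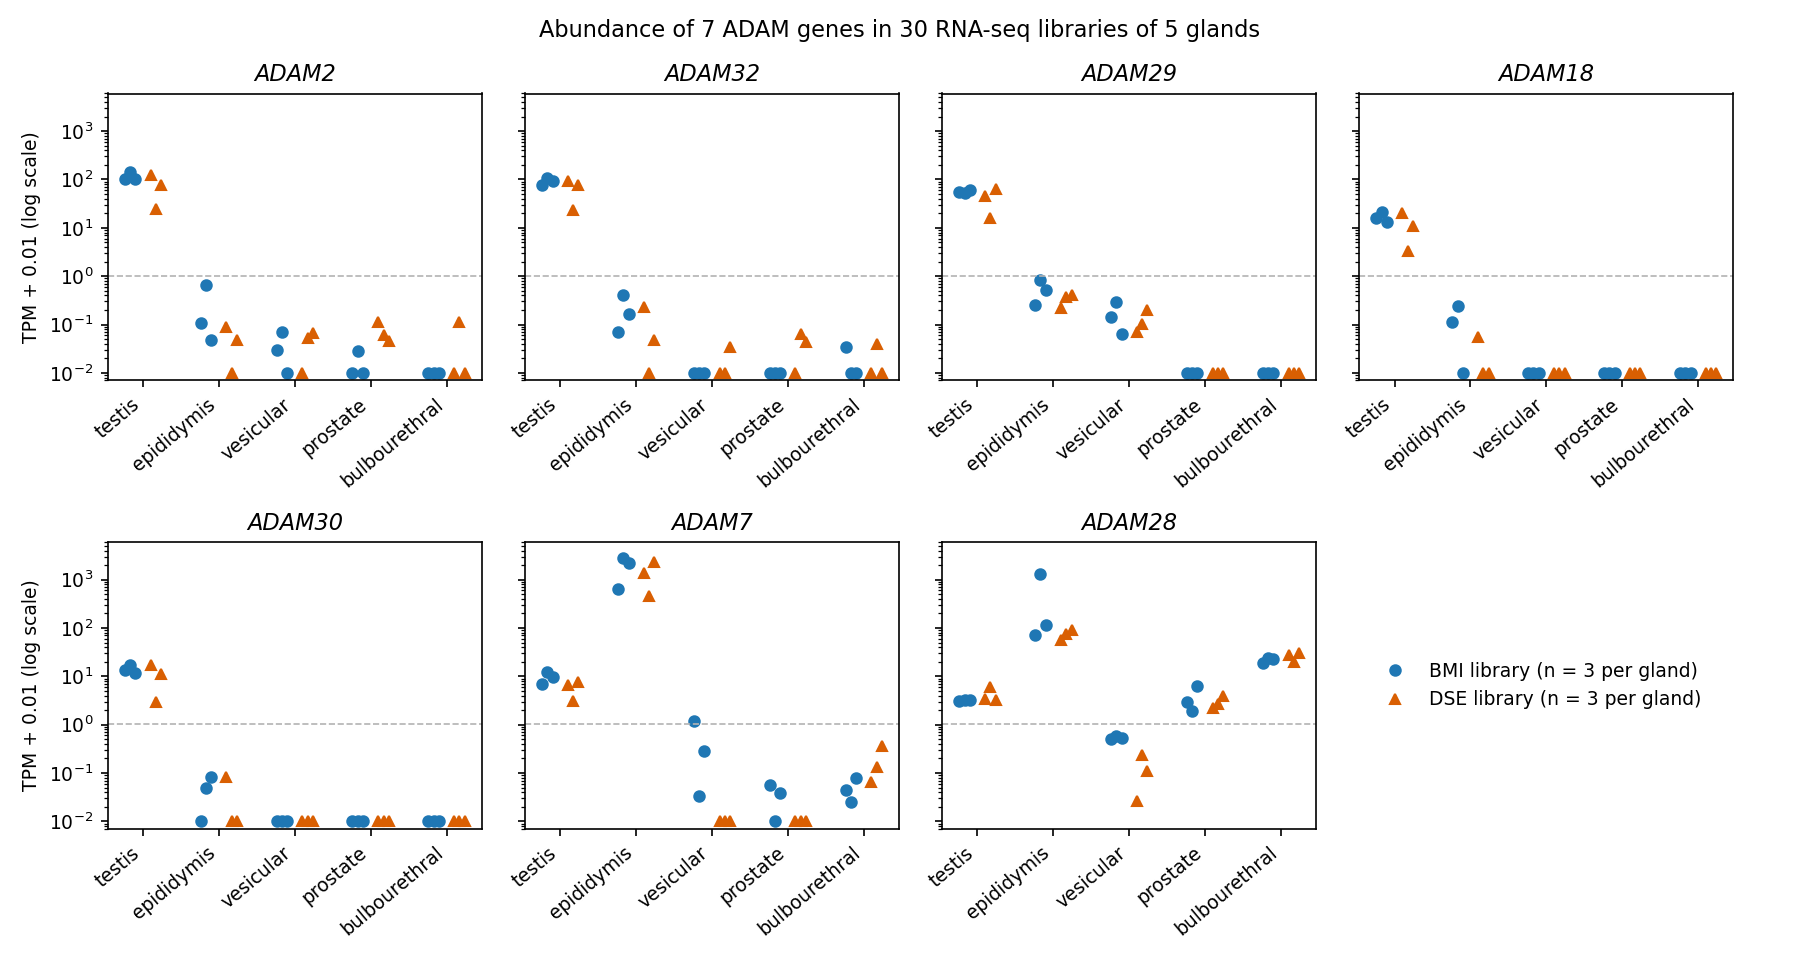
TPM + 0.01 on a log axis for each of the 7 genes in the 30 RNA-seq libraries, by gland, with 1 point for each library (circles BMI, triangles DSE, n = 3 per breed and gland) and a dashed line at 1. ADAM2, ADAM18, ADAM29, ADAM30 and ADAM32 are above the line in testis alone, ADAM7 is highest in the epididymis, and ADAM28 is high in the epididymis and, at 18.4 to 30.2 TPM, in the bulbourethral gland.

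In the epididymis the highest values were 0.828 TPM of ADAM29 and 0.635 TPM of ADAM2, both in BMI epididymis 2. ADAM18 and ADAM30 were listed at 0 in all 18 libraries of the vesicular, prostate and bulbourethral glands, and ADAM29 in all 12 of the prostate and bulbourethral glands. In Iso-seq there were 161 and 185 full-length reads of ADAM2 in BMI and DSE testis, 215 and 199 of ADAM32, 123 and 82 of ADAM29 and 24 and 44 of ADAM18. ADAM30 had 1 read in each testis library, too few to set against a count of 0 elsewhere. ADAM2 was at 354 RPM (reads per 1000000 full-length reads of the library in the isoform table) in BMI testis (95% Wilson interval 303 to 413) and at 404 in DSE testis (350 to 467), intervals that cover counting error only. In the epididymis 0 reads of ADAM2, ADAM18, ADAM29 and ADAM30 were seen, which allows up to 6.54 RPM in BMI and 13 in DSE, and ADAM32 had 1 read in DSE.

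ADAM7, a sperm-surface protein that comes from the epididymal epithelium, had the highest level of the 7 genes, in the epididymis. It was at 648, 2780 and 2211 TPM in BMI epididymis 1 to 3 and at 1399, 468 and 2315 TPM in DSE epididymis 1 to 3. In testis it was at 6.94, 12.1 and 9.47 TPM in BMI and at 6.54, 3.01 and 7.52 TPM in DSE, so that all 6 testis libraries held it and the lowest epididymis library was still far above the highest testis library. The accessory glands were below 1 TPM except BMI vesicular gland 1 at 1.17 TPM.

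ADAM28, a metalloprotease also known from lymphocytes, was at 73.2, 1303 and 114 TPM in BMI epididymis 1 to 3 and at 57.5, 75.4 and 90.6 TPM in DSE epididymis 1 to 3. The value of BMI epididymis 2 was thus far above the other 5, and the mean of 286 ± 499 TPM (SD, n = 6) lay above every library but this one. In the same library 4 of the 6 epididymis markers measured were highest, with 9677 TPM of LCN8 and 6126 TPM of LCN6, lipocalins secreted by the epididymal epithelium, 8449 TPM of GPX5, an epididymal glutathione peroxidase, and 2759 TPM of CRISP1. The other 2 were not, as LCN10 was at 203 TPM there and at 1429 TPM in DSE epididymis 1, and DEFB129, a beta-defensin, at 3817 TPM there and at 5193 TPM in DSE epididymis 3. In the other 5 epididymis libraries LCN8 was between 1.51 and 21.2 TPM. The macrophage markers summed to 91.9 TPM in BMI epididymis 2, within the range of the gland, and the B and plasma cell markers to 36.6 TPM against 8.69 to 26.7 TPM. The part of these differences in the value of ADAM28 was not tested.

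Outside the epididymis ADAM28 was the one member with a clear level in an accessory gland. It was at 18.4, 24.4 and 22.8 TPM in BMI bulbourethral gland and at 28.2, 19.8 and 30.2 TPM in DSE bulbourethral gland, a spread of less than 1.64-fold over the 6 libraries. The prostate gland held between 1.9 and 6.23 TPM, the testis between 3.05 and 5.91 TPM and the vesicular gland between 0.0161 and 0.565 TPM. The epididymis markers were at most 1.02 TPM in sum in the bulbourethral libraries. The B and plasma cell markers were highest in this gland, with sums of 22.9 to 292 TPM and a median of 122 TPM against medians of 5.26 to 18.8 TPM in the other glands. Most of the sum was JCHAIN, the joining chain of secreted antibodies, at 15.2 to 279 TPM, while MS4A1, a surface protein of B cells, was at most 0.163 TPM. The part of these cells in the level of ADAM28 was not tested. In Iso-seq, ADAM28 had 96 and 71 reads in BMI and DSE bulbourethral gland, or 247 (Wilson 202 to 302) and 268 (212 to 337) RPM.

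**Figure D2:**
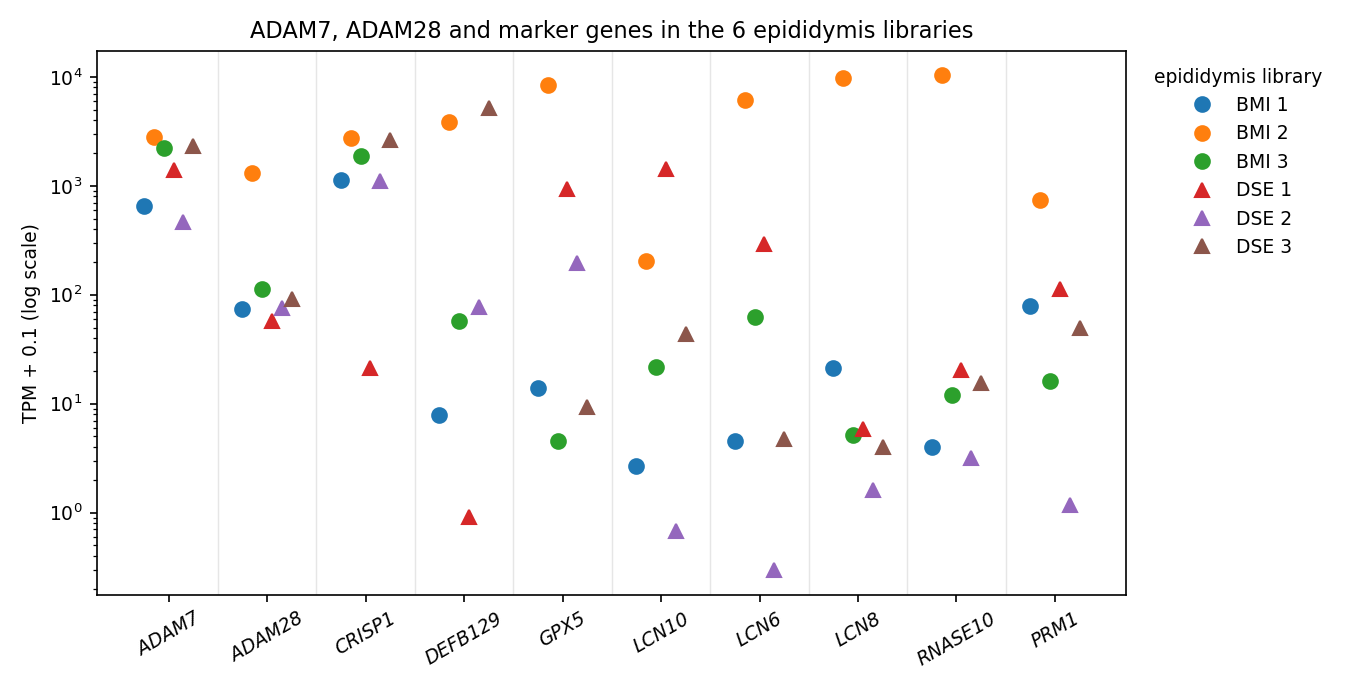
TPM + 0.1 on a log axis of ADAM7, ADAM28, 7 epididymis genes and the spermatid gene PRM1, with 1 point for each of the 6 epididymis libraries (circles BMI, triangles DSE). ADAM7 spans 468 to 2780 TPM, whereas ADAM28 is at 57.5 to 114 TPM in 5 libraries and at 1303 TPM in BMI epididymis 2.

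In long reads the 2 genes of the epididymis differed widely between the single libraries of the breeds. ADAM7 had 9155 of the 458697 reads of BMI epididymis and 554 of the 231413 reads of DSE epididymis, or 19959 (Wilson 19558 to 20368) and 2394 (2203 to 2602) RPM. ADAM28 had 5770 and 32 reads, or 12579 (12261 to 12906) and 138 (98 to 195) RPM. With 1 library for each breed this is a difference between libraries with no replicate check. In the RNA-seq libraries neither gene was called different between the breeds, as described further on.

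The comparison of testis with epididymis asked which of the genes belong to the gland that makes sperm and which to the gland that sperm pass through. With limma on log2(TPM + 1) a gene was called when its p, adjusted after Benjamini and Hochberg over the 19911 genes tested, was below 0.05 and its log2 difference was 1 or more in size. Of all genes tested 51% were called, 29.3% higher and 21.6% lower in testis. ADAM7 and ADAM28 were called lower. ADAM2, ADAM18, ADAM29, ADAM30 and ADAM32 reached 1 TPM in all 6 testis libraries and in 0 of the 24 others, so they passed the filter through testis alone and had to be higher there. Their differences from testis are therefore given as a description, with no p, and the same holds for any gene of the lists that passed through 1 gland alone. The median log2 difference of all genes was -0.02, and 0.11 with size factors. In bulk tissue fewer cells of a type and less RNA per cell cannot be told apart.

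The log2(TPM + 1) difference of testis from epididymis was 6.24 ± 0.23 (SE) for ADAM2, 5.99 ± 0.21 for ADAM32 and 5.01 ± 0.20 for ADAM29. It was 3.65 ± 0.22 for ADAM18 and 3.55 ± 0.21 for ADAM30. The addition of 1 TPM holds the differences of genes at low levels down, and with 0.1 TPM added ADAM2 differed by 8.78 and ADAM18 by 6.39. For each of these genes the lowest testis library lay above the highest epididymis library, as it did for 26.6% of all genes tested, while 43.1% did not overlap in either direction. ADAM29, whose 6 epididymis libraries were all above 0, had a mean 114 times as high in testis.

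ADAM7 was lower in testis by a log2 difference of -7.38 ± 0.33 (SE, adjusted p = 2.2e-16) and ADAM28 by -4.80 ± 0.42 (1.6e-10). The mean of ADAM7 was 216 times as high in the epididymis and that of ADAM28 77.3 times. Without BMI epididymis 2 the mean of ADAM28 was 22.2 times as high in the epididymis and its log2 difference -4.17, which was called. Without DSE epididymis 1 the differences were -7.31 for ADAM7 and -4.89 for ADAM28, both called. With the transcripts of the Ensembl annotation alone, the difference of ADAM7 shrank to -1.06, since those transcripts held 0.0869% of its TPM in the epididymis and 0% in testis.

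**Figure D3:**
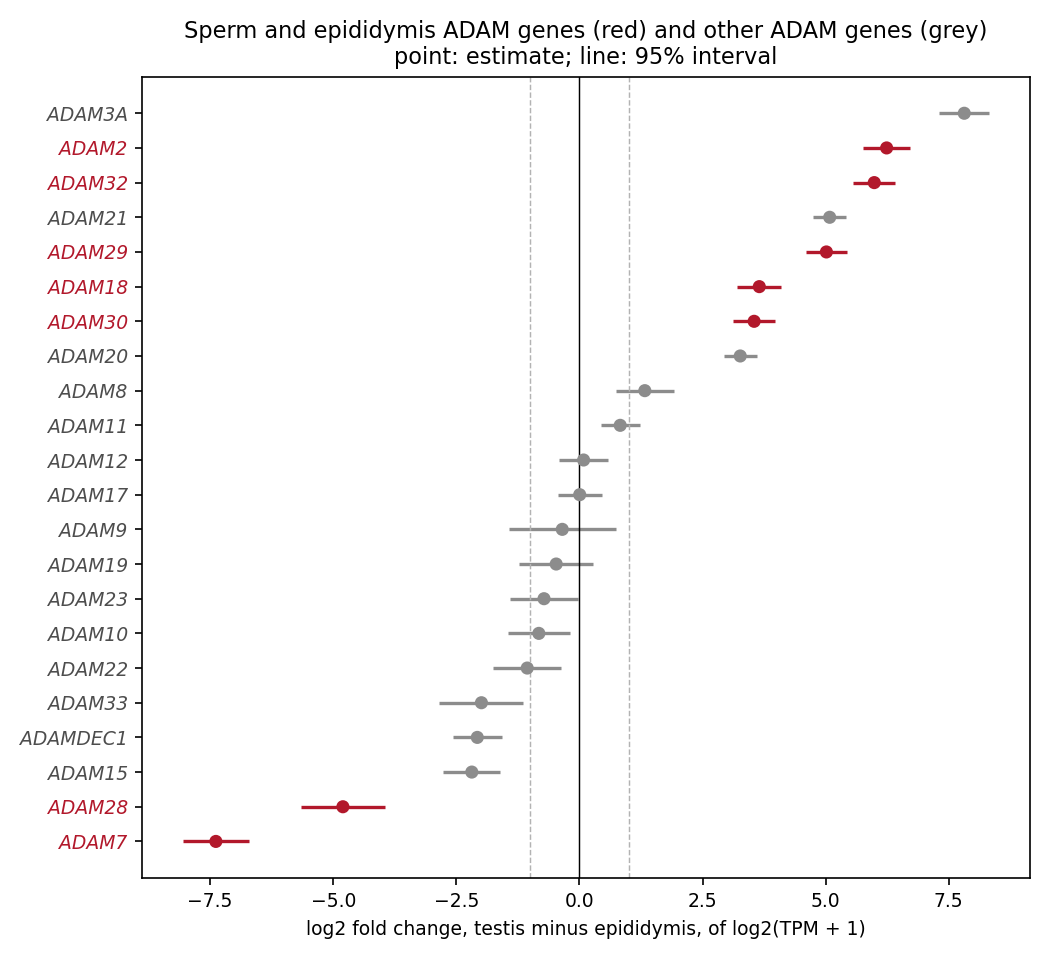
Log2 difference of testis minus epididymis on the log2(TPM + 1) scale for the 7 genes (red) and 15 other ADAM genes (grey), from the limma fit of all 30 RNA-seq libraries; points are estimates, lines are 95% intervals and dashed lines mark a difference of 1 in each direction. ADAM2, ADAM32, ADAM29, ADAM18 and ADAM30 lie between 3.55 and 6.24, and ADAM28 and ADAM7 at -4.80 and -7.38.

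Against the mean of the other 4 glands, where 47.3% of genes were called (34.5% higher, 12.7% lower, median log2 difference of all genes 0.31), ADAM28 was called lower in testis (-1.31 ± 0.33, adjusted p = 0.00097). The 5 testis genes, which passed the filter through testis alone, are not counted there. ADAM7 was at 0.31 ± 0.26 (adjusted p = 0.28) and was not called, as its testis level lies above 3 of the glands and below the epididymis. With 0.1 TPM added it was called higher, by 2.21. Against the mean of the 3 accessory glands, where 20.1% of genes were called (17.6% higher, 2.43% lower, median 0.41), ADAM7 was higher in the epididymis by 10.26 ± 0.27 (adjusted p = 1.1e-19) and ADAM28 by 4.66 ± 0.34 (5.5e-11). The 5 testis genes were not called there. They could not be, since outside testis all their values were below 1 TPM, too low for a log2(TPM + 1) difference of 1. ADAM29, the closest to that threshold, differed by 0.44 ± 0.16 (adjusted p = 0.027), and with 0.1 TPM added by 1.91, which was called.

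The levels were ordered by testing each of the 10 pairs of glands, and 36 of the 70 differences passed the thresholds. Of these, 16 were of ADAM7 and ADAM28 and 20 were of the 5 testis genes between testis and each other gland, a direction that the filter fixed. Of all genes tested, 51% were called between testis and epididymis, 52.9%, 48.8% and 49.1% between testis and the vesicular, prostate and bulbourethral glands, 36.5%, 21.3% and 21.3% between the epididymis and these glands, and 14.8%, 27.8% and 7.65% between vesicular and prostate, vesicular and bulbourethral, and prostate and bulbourethral gland. For the 5 testis genes no pair of the remaining glands was called apart, and none could be. Outside testis they were at most 0.828 TPM, too low for a log2(TPM + 1) difference of 1. For ADAM7 the order was epididymis, then testis, then the vesicular, bulbourethral and prostate glands, whose differences from each other were not called. ADAM7 was higher in testis than in the vesicular gland by 2.77 ± 0.33 (adjusted p = 3.5e-08).

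For ADAM28 the order was epididymis, bulbourethral gland, testis and prostate gland, and vesicular gland. The step from epididymis to bulbourethral gland was 2.39 ± 0.42 (adjusted p = 5.6e-05) and that from bulbourethral gland to testis was 2.42 ± 0.42 in size (1.4e-05). Testis and prostate gland differed by 0.16 (95% interval -0.70 to 1.02, adjusted p = 0.75), which does not separate them. The vesicular gland was below the prostate gland by 1.66 ± 0.42 in size (adjusted p = 0.0034).

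The other genes of the sperm ADAM pathway were taken from lists of known factors. Of 21 other ADAM genes 15 were in the table and tested between testis and epididymis. 4 were called higher in testis, 4 lower and 7 not called, with a median of -0.35, against 29.3% higher and 21.6% lower of all genes tested. ADAM3A, the cyritestin of the sperm surface, was higher by 7.81 ± 0.25, ADAM21 by 5.08 ± 0.16 and ADAM20 by 3.27 ± 0.16, all 3 known as testis ADAMs, and ADAM8, a leukocyte sheddase, by 1.33 ± 0.29. ADAM15, a widely expressed ADAM of cell adhesion, was lower in testis at -2.19 ± 0.28, ADAMDEC1, the neighbour of ADAM7 and ADAM28 that is known from macrophages, at -2.07 ± 0.24, and ADAM33, an ADAM of smooth muscle and fibroblasts, at -1.99 ± 0.41. The broad sheddases ADAM10 (-0.82) and ADAM17 (0.01) were not called.

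Of 12 genes for the folding, modification and processing of sperm ADAMs, 9 were in the table. Of these 7 were called higher in testis and 2 lower (median 6.05), against 29.3% and 21.6% of all genes tested. The count is a description, as a gene such as TEX101 passed the filter through testis alone and had to be higher there. PRSS37, a protease-like protein of the acrosome that ADAM3 processing needs, was higher by 8.05 ± 0.38, CLGN, the chaperone calmegin, by 6.99 ± 0.24 and TEX101, a GPI-anchored partner of ADAM3, by 6.91 ± 0.16. RNASE10, a secreted protein of the proximal epididymis, was lower in testis at -4.66 ± 1.04. Its 6 epididymis libraries held 3.88, 10294 and 12 TPM in BMI and 20.1, 3.09 and 15.4 TPM in DSE, so that BMI epididymis 2 stood far above the others here too. PGAP1, an enzyme that remodels GPI anchors, was lower at -3.44 ± 0.31.

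The proprotein convertases cut ADAM precursors, and 7 of 7 were in the table, 5 of them tested. PCSK4, the convertase of germ cells, was higher in testis by 6.35 ± 0.23, FURIN, the general convertase, was lower at -1.97 ± 0.36 and PCSK6 at -1.54 ± 0.49, and the other 2 were not called. Of the 5 integrin subunits listed as partners of ADAM disintegrin domains 5 were called lower in testis, as were 21.6% of all genes tested. Among them were ITGA9 at -1.66 ± 0.34, ITGB1 at -1.41 ± 0.33 and ITGA6 at -1.28 ± 0.42. Of 3 TIMP inhibitors tested, TIMP1 was lower at -4.65 ± 0.43. In the pathway by which the testis signals to the epididymal epithelium through the lumen, 3 genes were tested: the receptor ROS1 was lower in testis at -2.09 ± 0.63 and the phosphatase PTPN6 at -2.02 ± 0.25, and the ligand NELL2 was at 0.72 ± 0.30 and not called. Of the 5 macrophage markers 4 were called lower in testis too. All 5 together summed to 7.22 to 22.7 TPM in testis and to 18.3 to 162 TPM in the epididymis. The part of immune cells in the integrin, PTPN6 and ADAMDEC1 differences was not tested.

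The breeds were compared within each gland, to see whether the inbred line and its source breed differ in these genes. No member was called in any gland. Of all genes tested 0.196% were called between BMI and DSE in testis, 0% in the epididymis, 0.01% in the vesicular gland, 0.0854% in the prostate gland and 0.0251% in the bulbourethral gland. For the count of 0 in the epididymis, 489 genes had an unadjusted limma p below 0.05. On simulated data the test in testis found 0% of genes planted with a log2 difference of 1, 58% of those with 2 and 97.5% of those with 4. A log2 difference of 1, the threshold itself, could thus not be detected in testis with 3 libraries of each breed. Breed differences in the other glands were not simulated.

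In testis the log2 differences of BMI minus DSE of the 5 sperm genes lay between 0.61 (ADAM29) and 0.86 (ADAM2, 95% interval -0.60 to 2.32, adjusted p = 0.54). All of their DSE means contain the low library DSE testis 2. Without it the differences were 0.20 for ADAM2, 0.14 for ADAM32, 0.11 for ADAM18, 0.06 for ADAM29 and 0.02 for ADAM30, and the number of genes called between the breeds in testis went from 39 to 92. ADAM7 in testis differed by 0.69 (-0.22 to 1.61) and ADAM28 by -0.28 (-0.89 to 0.33), and without DSE testis 2 by 0.36 and -0.06.

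In the epididymis ADAM7 differed between BMI and DSE by 0.46 (95% interval -1.65 to 2.58) and ADAM28 by 1.59 (-1.24 to 4.41). The ranges of both breeds overlapped for both genes. Without BMI epididymis 2 the difference was 0.06 for ADAM7 and 0.31 for ADAM28, and without DSE epididymis 1 it was 0.61 and 1.41. In the bulbourethral gland ADAM28 differed by -0.23 (-0.75 to 0.29). In the vesicular gland, where all of its values lay below 0.6 TPM, ADAM28 was at 0.5, 0.565 and 0.529 TPM in BMI and at 0.0161, 0.23 and 0.0977 TPM in DSE, without overlap. In this gland 22.8% of all genes tested did not overlap between the breeds, 21.1% with BMI higher, and the median log2 difference of all genes was 0.27, and 0 with size factors. The log2 difference of ADAM28 was 0.46 ± 0.07 (adjusted p = 0.17), 0.37 with size factors and 1.68 with 0.1 TPM added (adjusted p = 0.22).

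Whether the breed difference was another in testis than in the epididymis was tested as an interaction, for which 0.266% of genes were called. No member was among them. The interaction of ADAM28 was -1.87 ± 1.15 (adjusted p = 0.92), and -0.59 without BMI epididymis 2. Those of the others lay between 0.23 and 0.64, and without DSE testis 2 between -0.13 and -0.0010.

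DSE testis 2 was below all 5 other testis libraries in 5 of 5 testis ADAMs. The mean of the other libraries was 3.41 times its value for ADAM29, 3.76 times for ADAM32, 4.49 times for ADAM2, 4.87 times for ADAM30 and 4.88 times for ADAM18. In the same library 10 of 10 spermatid markers were below all others, by 3.19 to 4.71 times, and 8 of 8 spermatocyte markers, by 2.07 to 6.64 times. ADAM28, which was highest in this library, moved the other way with 5.91 TPM against 3.05 to 3.42 TPM, as did the macrophage markers, which summed to 22.7 TPM against 7.22 to 14.6 TPM. The B and plasma cell markers summed to 11.2 TPM there and to 5.08 to 7.95 TPM in the others, with 1 of the 6 at 1 TPM or more in each of the 6 libraries. The T cell markers were lowest in it, at 2.91 TPM against 3.43 to 6.46 TPM. The summed markers of epididymal epithelium were highest in it, at 4.39 TPM against 0.851 to 1.84 TPM. Most of that sum was LCN6 at 3.72 TPM, with the other markers at most 0.296 TPM each and LCN8 at 0. The part of any of these cells in the value of ADAM28 was not tested. Without DSE testis 2, the testis and epididymis difference of ADAM2 was 6.57 and that of ADAM28 -4.92.

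**Figure D4:**
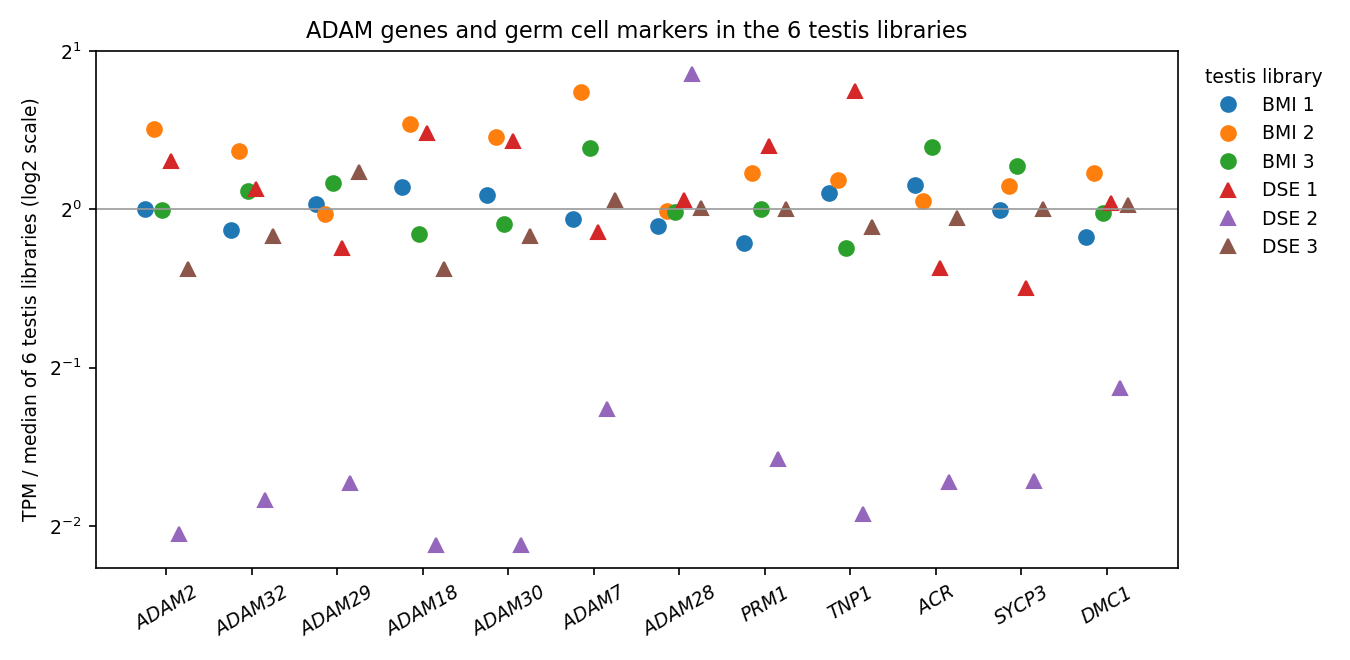
TPM of each of the 7 ADAM genes and of 5 germ cell genes (PRM1, TNP1, ACR, SYCP3 and DMC1) in each of the 6 testis libraries, divided by the gene's median over these libraries, on a log2 axis; circles are BMI and triangles DSE libraries. DSE testis 2 is the lowest library for ADAM2, ADAM18, ADAM29, ADAM30, ADAM32, ADAM7 and the germ cell genes, and the highest for ADAM28.

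The genes whose levels over the 30 libraries were most like those of each member were looked up by Pearson correlation of log2(TPM + 1), given as a description, since all libraries of a gland share its cells. ADAM2 was most like GLIPR1L1, a sperm protein of the GLIPR1 family, CNTD1, a cyclin-like protein of meiotic crossing over, and SKOR2 (r = 0.999 for each). ADAM32 was most like KCTD19, RPL10L and SLC26A8 (0.999 each), of which RPL10L is a ribosomal protein and SLC26A8 an anion transporter of germ cells. ADAM18 was most like ABCC12, SLC9C1 and ST8SIA3 (0.998 to 0.999) and ADAM30 most like LEFTY2, SLC9C1 and LRRC74A (0.998 to 0.999), with SLC9C1, the sodium and proton exchanger of sperm, in both sets. ADAM29 was most like C16orf90, C12orf50 and FAM81B (0.998 each).

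ADAM7 was most like ABCB5 (0.987), EPPIN, a protease inhibitor of the sperm coat (0.979), and TXNDC16 (0.978). EPPIN was at 2641 ± 2250 TPM in the epididymis (SD, n = 6). ADAM28 had weaker matches, with NT5DC2 at 0.943, SKP2 at 0.922 and RAB9A at 0.913. Between the members, the 5 testis genes correlated with each other at 0.987 to 0.999 over the 30 libraries and ADAM7 with ADAM28 at 0.742. Within the 6 testis libraries ADAM2 correlated with ADAM32 at 0.987 and with ADAM28 at -0.926, with DSE testis 2 at one end of the range in each gene.

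The isoforms of the members were followed in the merged annotation, which joins Ensembl transcripts with isoforms from the Iso-seq reads. Of the isoforms of the members, 24 of 56 of ADAM7, 5 of 43 of ADAM28, 7 of 13 of ADAM32, 5 of 8 of ADAM2, 2 of 3 of ADAM18, 2 of 3 of ADAM29 and 2 of 2 of ADAM30 passed the filter. An isoform that passed through the libraries of 1 gland alone had to differ between the glands, so the counts of calls are a description. Of these 47 isoforms 44 were called between testis and epididymis, where 40.7% of all transcripts tested were called (25.5% higher in testis, 15.2% lower). All tested isoforms of ADAM2 (5), ADAM18 (2), ADAM29 (2) and ADAM30 (2) and 6 of 7 of ADAM32 were higher in testis, and 4 of 5 of ADAM28 were lower. Of the 24 tested isoforms of ADAM7, 21 were lower in testis and 2 were higher, against the direction of the gene. These were PB.5719.66 by 1.89 ± 0.19 (SE) and PB.5719.76 by 1.65 ± 0.15, given without p. PB.5719.76 reached 1 TPM in testis alone, so it had to be higher there. PB.5719.66 was at 1.57 TPM or more in every testis library, with a mean of 0.449 TPM in the epididymis. No isoform of a member was called between the breeds in testis, where 0.213% of transcripts were, or in the epididymis, where 0% were called by limma and 2010 had an unadjusted p below 0.05.

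The Ensembl transcripts carried very different shares of the genes. In testis they held 82.7% of the TPM of ADAM2 and 85.1% of that of ADAM30, but 0.318% of ADAM18, 0.0249% of ADAM32 and 0% of ADAM29. The TPM of ADAM29 in testis came from PB.5748.67 (27.8 ± 9.55 TPM) and PB.5748.68 (20.6 ± 8.51 TPM), whose common start lies 7410 bases upstream of the first Ensembl start. For ADAM32 the leading isoform was PB.7197.1 with 54.5 ± 19.5 TPM (SD, n = 6), and for ADAM18, among the isoforms that have a TPM, PB.8681.2 with 7.09 ± 3.72 TPM. In the epididymis the Ensembl transcripts held 94.7% of the TPM of ADAM28.

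The full-length reads spread over 67 isoforms of ADAM7, 52 of ADAM28, 13 of ADAM32, 11 of ADAM2, 4 of ADAM18, 2 of ADAM29 and 1 of ADAM30. The predicted reading frame was coding in 56, 44, 13, 11, 4 and 2 of them and in 0 of ADAM30, and nonsense-mediated decay was predicted for 17 isoforms of ADAM28, 3 of ADAM7, 2 of ADAM32 and 1 of ADAM2. In the 6 genes with more than 2 reads a single isoform held between 67.8% and 88.2% of them. PB.5719.3 had 8261 of the 9753 reads of ADAM7 (84.7%), a transcript of 24 exons with a predicted protein of 687 residues that is not in the Ensembl annotation. It had 88.3% (Wilson 87.6% to 89%) of the ADAM7 reads of BMI epididymis, the library with most of the reads, and 30.9% (27.2% to 34.8%) of the 554 of DSE epididymis. PB.5716.9, which matches all splice sites of an Ensembl transcript, had 5009 of the 6001 reads of ADAM28 (83.5%), with 84.2% (83.3% to 85.1%) of those of BMI epididymis and 14 of 32 (43.8%, 28.2% to 60.7%) of those of DSE epididymis. PB.7185.100 had 253 of 346 reads of ADAM2 (73.1%, 68.2% to 77.5%) and PB.7197.1 had 304 of 415 reads of ADAM32 (73.3%, 68.8% to 77.3%). PB.8681.3, which is not listed in the TPM table, had 60 of 68 reads of ADAM18 (88.2%, 78.5% to 93.9%) and PB.5748.67 had 139 of 205 reads of ADAM29 (67.8%, 61.1% to 73.8%). The salmon values of ADAM7 put PB.5719.3 second in the epididymis with 25.5% of its TPM, behind PB.5719.75 with 28.7%, an isoform that had 134 full-length reads. This order rests on BMI epididymis 3, without which the means were 452.8 TPM for PB.5719.3 and 355 TPM for PB.5719.75, and PB.5719.75 was the higher of the pair in 3 of the 6 libraries. In DSE epididymis 1 PB.5719.3 was listed at 0 TPM.

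The share of a gene's TPM in its leading isoform was compared too. For ADAM7 and ADAM28 this isoform had been chosen by its level in the epididymis, so the shares in the glands are a description. PB.5719.75 was at 0% of ADAM7 in testis and at 27.2 ± 11.7% in the epididymis (SD, n = 6). For ADAM28 the Ensembl transcript ENSSSCT00000010572 was at 10.5 ± 25.7% in testis, where the highest library had 63.04%, and at 77.5 ± 38% in the epididymis, where DSE epididymis 1 had 0%. Between the breeds 7 shares were tested, and 3 against 3 libraries cannot go below an exact p of 0.1. ADAM2 (83.8 ± 0.917% in BMI, 79.4 ± 4.43% in DSE testis) and ADAM30 (81.2 ± 0.869% and 91.3 ± 3.14%) reached it, with an adjusted p of 0.35 for both.

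The TPM of ADAM7 and ADAM28 fell mostly to other start positions in testis than in the epididymis, with exceptions in DSE testis 3 and DSE epididymis 1 that are given with the values. Starts within 100 bases of each other were joined into classes after the data had been seen, so their values are given as a description. Full-length reads of isoforms not listed under their own name in the merged annotation, such as PB.5716.9 of ADAM28, have no start there and are left out. For ADAM7 the start at position 8482917 held 562.8 ± 514 TPM in the epididymis (34.4% of the gene) and 8775 of the 9072 BMI and 386 of the 492 DSE epididymis reads with a start, or 96.7% (Wilson 96.3% to 97.1%) and 78.5% (74.6% to 81.9%). In testis this start held 0.267 ± 0.0926 TPM. By TPM the rest of the epididymis level fell mostly to starts at 8502436 (469.8 ± 379 TPM, 28.7%), 8494208 (319 ± 282 TPM, 19.5%) and 8483079 (254 ± 465 TPM, 15.5%), of which the last was at 1154 TPM in DSE epididymis 1, 82.5% of ADAM7 in that library. Full-length reads at these 3 starts were few, at most 112 in BMI and 22 in DSE epididymis for any of them.

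In 5 of the 6 testis libraries most of the TPM of ADAM7 fell to a start 8075 bases farther along, at position 8490992 in an intron of an Ensembl transcript of the gene. That start held 4.9, 9.39 and 5.57 TPM in BMI testis and 4.88, 1.7 and 3.39 TPM in DSE testis, 65.5% of the gene's mean. In the epididymis it held 24.9 TPM in DSE epididymis 1, above every testis library, and at most 1.55 TPM in the other 5 libraries. All 19 BMI and 20 DSE testis reads of ADAM7 began there, against 6 and 3 reads in the epididymis. Its main isoform PB.5719.66 has 22 exons and a predicted protein of 714 residues. Another start, at 8511424, of PB.5719.76 with 15 exons, held 2.3 ± 1.18 TPM in testis, 30.3% of the gene. In DSE testis 3 it led, with 3.93 TPM (52.2%) against 45.1% at 8490992. It was listed at 0 in all 6 epididymis libraries, although 2 full-length reads of it came from DSE epididymis and 0 from testis.

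For ADAM28 the start at position 8375130 held 97.7% of the summed TPM in the epididymis and 21.8% in testis, but single libraries differed. In the epididymis it held 99.3% to 99.8% in 5 libraries and 41.3% in DSE epididymis 1, and in testis 7.38% to 22.4% in 5 libraries and 78% in DSE testis 3. In testis 52.8% fell to the start at 8382579, 7449 bases farther along, which 2 Ensembl transcripts share and no full-length read showed. The TPM of that start was 1.63, 2.15 and 2.22 in BMI testis and 2.59, 3.11 and 0 in DSE testis. Outside testis it was highest in DSE epididymis 1, at 30.5 TPM or 53% of the gene in that library, and reached 3.71 TPM in the prostate gland. A further start lies 379830 bases upstream of the epididymis start, at 7995300, the nearest annotated gene to its left being STC1 at 33734 bases. It held 0.64, 0.663 and 0.755 TPM in BMI testis and 0.395, 2.28 and 0.723 TPM in DSE testis, 24.6% of the gene. In full-length reads 6 of the 8 BMI and 12 of the 12 DSE testis reads with a start began there, against 1 of 410 and 0 of 12 in the epididymis. This start thus carried most of the testis reads with a start, which were few, at no more than 2.28 TPM in any testis library.

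**Figure D5:**
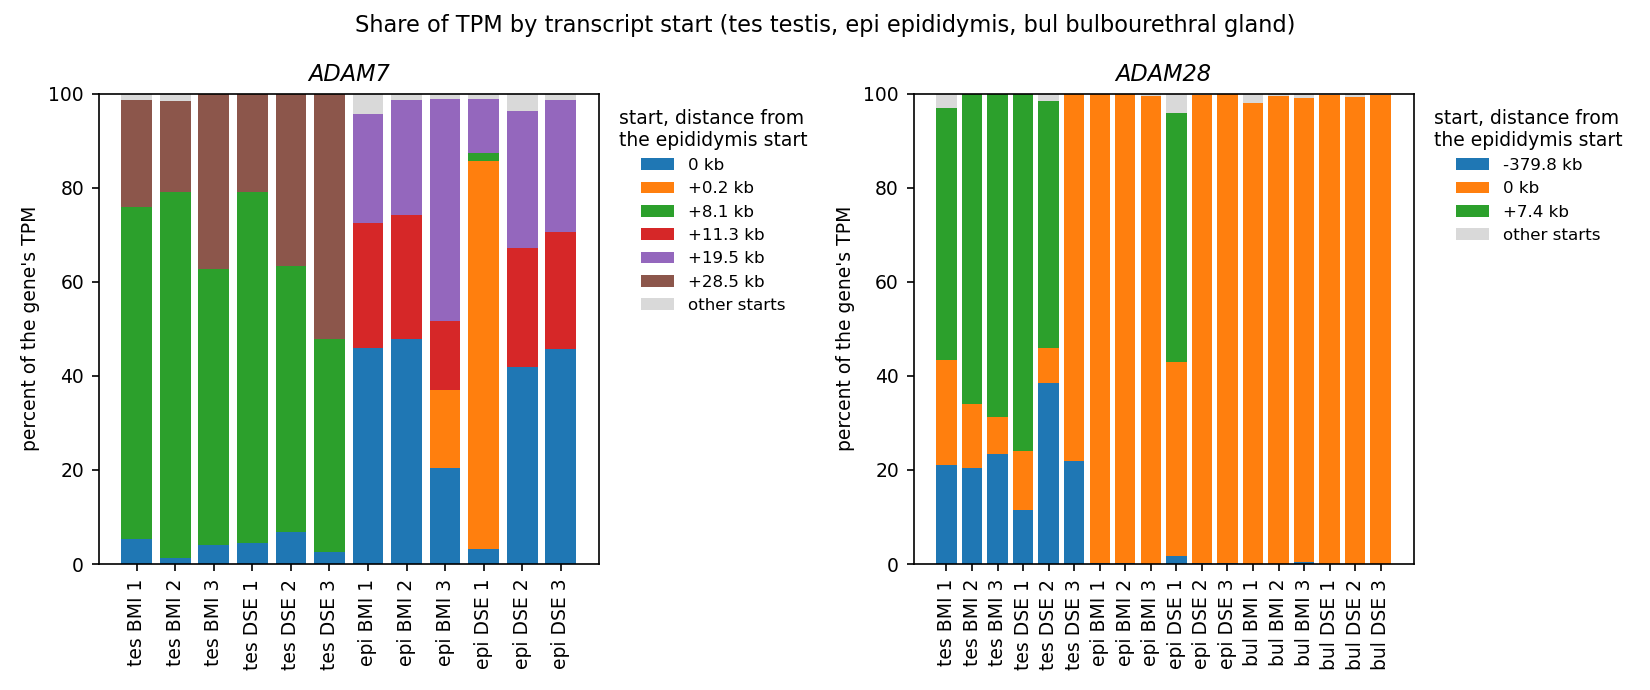
Percent of the gene's TPM by transcript start for ADAM7 (left, testis and epididymis) and ADAM28 (right, with the bulbourethral gland too), with 1 stacked bar for each library and starts given as distance from the main epididymis start. Over the testis means 65.5% of ADAM7 and 52.8% of ADAM28 fall to starts that hold 0.281% and 1.78% of the epididymis TPM, and DSE testis 3 has 0 TPM at the second of these.

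The 250 bases before these starts are shown because they carry most of the TPM or of the full-length reads in one of the glands. They were read from Sscrofa11.1 in the direction of transcription (the plus strand for both genes), ending at the base before the start, with capitals for matches on either strand to the TATA box (letters TATAAA), the CCAAT box, the cyclic AMP response element (letters TGACGTCA) or the half-site of the androgen receptor (letters AGAACA).
ADAM7, epididymis start, chr14:8482667-8482916: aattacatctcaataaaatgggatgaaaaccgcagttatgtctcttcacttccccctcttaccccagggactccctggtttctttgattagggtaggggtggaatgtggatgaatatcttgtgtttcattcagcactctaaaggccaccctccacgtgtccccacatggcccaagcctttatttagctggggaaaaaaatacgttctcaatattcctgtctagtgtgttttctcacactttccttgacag
ADAM7, testis start, chr14:8490742-8490991: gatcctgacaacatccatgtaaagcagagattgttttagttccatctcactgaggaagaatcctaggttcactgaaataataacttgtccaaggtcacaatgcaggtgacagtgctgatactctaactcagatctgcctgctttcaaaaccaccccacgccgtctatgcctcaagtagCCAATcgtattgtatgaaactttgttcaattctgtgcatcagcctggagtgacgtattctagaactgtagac
ADAM28, epididymis start, chr14:8374880-8375129: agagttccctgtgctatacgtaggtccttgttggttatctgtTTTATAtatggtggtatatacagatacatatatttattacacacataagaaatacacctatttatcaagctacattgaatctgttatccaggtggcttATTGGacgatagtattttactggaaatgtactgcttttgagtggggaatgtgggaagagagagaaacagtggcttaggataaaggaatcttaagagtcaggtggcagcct
ADAM28, testis start of the Ensembl transcripts, chr14:8382329-8382578: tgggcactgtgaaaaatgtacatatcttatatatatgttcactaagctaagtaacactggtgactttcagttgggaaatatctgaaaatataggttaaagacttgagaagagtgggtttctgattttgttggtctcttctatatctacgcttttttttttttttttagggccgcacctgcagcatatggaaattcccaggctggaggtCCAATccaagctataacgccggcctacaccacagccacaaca
ADAM28, most upstream start, chr14:7995050-7995299: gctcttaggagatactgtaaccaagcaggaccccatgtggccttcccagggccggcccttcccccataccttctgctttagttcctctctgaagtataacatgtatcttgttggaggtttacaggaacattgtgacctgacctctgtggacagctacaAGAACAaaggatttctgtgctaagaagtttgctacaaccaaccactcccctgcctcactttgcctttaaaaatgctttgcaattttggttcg

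The 5 windows held few matches. CCAAT was found once before the testis start of ADAM7, once before the ADAM28 start at 8382579 and once before the epididymis start of ADAM28, which also held TATAAA once. AGAACA was found once before the most upstream start of ADAM28. The ADAM28 start at 8382579, called a testis start above, held 52.8% of the gene's TPM in testis. Its level was highest in DSE epididymis 1, at 30.5 TPM, and no full-length read showed it. Over the windows before 34677 gene starts 32.16% held CCAAT, 13% TATAAA, 13.43% AGAACA and 1.53% TGACGTCA. The 5 windows had 3, 4, 2, 4 and 2 CpG dinucleotides against a median of 8 over all gene starts, and the window before the ADAM32 start had 14 with 2 matches to CCAAT. In the authors' classification of isoforms by SQANTI3, 5′ ends were set against a reference of transcript starts, which their column names call CAGE peaks and the study's text calls the Ensembl annotation. Which of these it was is not settled here. All 42 Iso-seq isoforms that began at the epididymis start of ADAM7 and all 30 at that of ADAM28 lay within such a reference start, and none of the isoforms at the testis start of ADAM7 (3) or the most upstream start of ADAM28 (6) did. This describes nearness to reference starts and is no independent measure of where transcription begins.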

How the data were processed

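Total RNA of the glands was sequenced as paired-end RNA-seq and as PacBio Iso-seq. The authors merged Iso-seq isoforms with Ensembl release 107 on Sscrofa11.1 and quantified RNA-seq reads with Salmon 1.9.0, and the TPM values used here are those deposited. The authors also deposited counts of full-length reads per isoform and library, with SQANTI3 classes. Their methods name poly-T beads and the labels name rRNA depletion for RNA-seq. No per-sample column was left unassigned to a library, and the small RNA files were not used.

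TPM of 133722 transcripts was summed by gene name to 35680 genes, and the 19911 genes that reached 1 TPM in 3 or more libraries were tested with limma 3.58.1 (trend, R 4.3.3) on log2(TPM + 1). Glands were compared in 1 fit of the 10 groups of breed and gland, breeds within each gland's 6 libraries. A call needed a p below 0.05 after Benjamini-Hochberg adjustment together with a log2 difference of 1 or more in size. Shares of isoforms were tested between breeds by two-sided exact permutation. Between glands the planned test of these shares was dropped, since the isoform was chosen by its level in 1 gland. Full-length reads, with 1 library per breed and gland, were not tested, and the Wilson intervals and the limit of 3 reads for a count of 0 cover counting error only. The authors' methods name 30 tissue samples and do not say how many boars gave them, so p-values measure the spread between these tissue samples. The fit was tested on simulated data: of genes planted with a log2 difference of 1 between testis and epididymis 42% were recovered, of 2, 95.5%.

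Coding stretches and upstream windows were read from the RefSeq copy of Sscrofa11.1 at the positions of the merged annotation, proteins being aligned with Biopython 1.88. The 7 genes were chosen by symbol, and the most similar genes as the 3 of highest correlation. From the pathway lists up to 3 called genes per direction were named, and ADAM8, ADAM10, ADAM17, NELL2 and single markers were named beyond this after their values were seen. Members and lists were chosen with earlier results of these data known. Alternatives were a pseudocount of 0.1 TPM, no filter, size factors, Ensembl transcripts alone, a fit of all 30 libraries for breeds, a replicate block, and leaving out each library.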

Additional observations from a re-analysis of the deposited data

Results flagged for a closer look

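In all, 11 groups of 6 libraries were examined on log2(TPM + 1), not on TPM, by Dixon's criterion at the 95% level. Chance alone meets it in about 1 in 20 groups. On this log2 scale 7 values lay far from the other 5 of their group. Of these, 6 came from the same library, DSE testis 2. It was low for ADAM2 (24.5 TPM), ADAM18 (3.31 TPM), ADAM29 (16.1 TPM), ADAM30 (2.93 TPM) and ADAM32 (23.8 TPM) and high for ADAM28 (5.91 TPM). The remaining value was ADAM28 in BMI epididymis 2, at 1303 TPM. DSE testis 2 also had the lowest sums of spermatid (26222 TPM), spermatocyte (334 TPM) and T cell markers (2.91 TPM) of the testis libraries. Its sums of macrophage (22.7 TPM), B and plasma cell (11.2 TPM) and epididymal epithelium markers (4.39 TPM, of which LCN6 was 3.72 TPM) were the highest. BMI epididymis 2 had the highest sums of epididymal epithelium (31031 TPM), spermatid (1115 TPM) and B and plasma cell markers (36.6 TPM) of the epididymis libraries, with 91.9 TPM of macrophage, 4.14 TPM of spermatocyte and 4.25 TPM of T cell markers inside the gland's range. The part of these cells in the values was not tested.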

How the results depend on the processing

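Between testis and epididymis the 7 members kept direction and side of the threshold in all 123 alternative values, which for the 5 testis genes is no sign of stability, since they passed the filter through testis alone. Of the members' alternatives, 247 of 249 did so for testis against the other glands, 206 of 207 for epididymis against the accessory glands, 139 of 141 for the breeds and 106 of 116 for the interaction. In testis against the other glands the filter likewise fixed the direction of the 5 testis genes. In epididymis against the accessory glands their values lay too low for a call with 1 TPM added, as did ADAM28 in the vesicular gland between the breeds. With 0.1 TPM added, ADAM7 became called in testis against the other glands and ADAM29 in epididymis against the accessory glands, 6345 genes were called in the latter comparison against 3997, and the interaction of ADAM2 was -0.13. With Ensembl transcripts alone the calls were 6083 (testis against epididymis, from 10148), 5567 (testis against the others, from 9414), 2503 (epididymis against accessory glands) and 14 (interaction, from 53), with ADAM7 at -0.28 in testis against the others and at -0.61 in the interaction. Fewer transcripts entered there by construction, and ADAM18, ADAM29 and ADAM32 did not pass the filter.

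Counts of breed calls depended on the setting, at 39, 0, 2, 17 and 5 genes in testis, epididymis, vesicular, prostate and bulbourethral gland. They were 63, 6, 25, 41 and 13 with 0.1 TPM added and 949, 140, 95, 119 and 59 in 1 fit of all libraries. Without a filter they were 1 in the vesicular gland and 0 in the prostate and bulbourethral glands, with size factors 9, 0 and 3, and with Ensembl transcripts alone 8 in testis and 0 in the vesicular and bulbourethral glands. The 138 transcripts called in testis became 376 with 0.1 TPM added and 82 without a filter. The cause was not tested. No member tested was called between the breeds in any gland under any of these settings. In the main setting, members below 1 TPM in every library of a gland could not be called there.

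Leaving out 1 library gave 5 to 92 genes in testis (92 without DSE testis 2), 0 to 6 in the vesicular, 0 to 14 in the prostate and 1 to 12 in the bulbourethral gland, 32 to 115 for the interaction, and 0 to 236 and 0 to 5 transcripts in testis and epididymis. Interactions then ran from -0.043 to 1.11 for ADAM2, -0.42 to 0.87 for ADAM7, -0.013 to 1.13 for ADAM18, -0.13 to 0.82 for ADAM29, -0.0010 to 1.10 for ADAM30 and -0.0051 to 0.95 for ADAM32, the lowest each time but for ADAM7 without DSE testis 2, and from -2.66 to -0.59 for ADAM28, the latter without BMI epididymis 2. Breed differences ran from -0.18 to 1.11 for ADAM7 in the epididymis and -0.21 to 0.45 for ADAM28 in the prostate gland. Shares of the leading isoform between breeds ran from -4.72 to 2.27 percentage points for ADAM29 and -1.05 to 4.26 for ADAM32. Over transcripts of at least 1 TPM in 3 libraries, the share differences of ADAM7 were -10.4 points between breeds (from 8.65) and -40.1 between glands (from -27.2).

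Same-numbered testis and epididymis libraries deviated together above r = 0.1 in 3 of 6 pairs, so the numbers were not taken as pairs. Between the other glands 17 of 54 pairs did. In DSE, every number did so between vesicular gland and testis (r = 0.15 to 0.29) and between vesicular gland and epididymis (0.23 to 0.39). With the replicate block 10166 genes were called between testis and epididymis against 10148, and 0 for the interaction, for the breeds in testis, vesicular, prostate and bulbourethral gland and for transcripts in testis. No call of a member changed in the comparisons that were refitted. Apart from testis against epididymis, the single pairs of glands had no alternative fit. The TPM hold no read depth, Iso-seq has no replicate, and ADAM30 rests on 2 long reads.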
